A study of Mus musculus with 6 samples.

Results

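The colony-stimulating factor genes and their receptors were examined in RNA-seq of cultures labelled as bone marrow mesenchymal stem cells (BMMSCs). They were taken as the rows whose symbol is Csf1, Il34, Csf2, Csf3, Csf1r, Csf2ra, Csf2rb, Csf2rb2 or Csf3r. These are 9 of the 36870 symbols listed. All 9 were found, and 7 reached the expression minimum used for testing. The samples were 3 control libraries and 3 libraries after knockdown of Tet1 and Tet2 by siRNA, all from mice labelled C57BL/6. Marrow cells that adhered within 48 hours were grown for a further 14 days, and the sample labels give passage 2 where the methods give passage 1. The controls received a non-targeting siRNA according to the labels, whereas the RNA-sequencing methods call them vehicle. Neither source says whether the 3 libraries of a group came from separate animals or cultures, so the p-values below measure the spread between these libraries, which may be technical. Levels are given as RPKM, read numbers corrected for transcript length and for how many reads the library mapped, and a fold change is the difference in mean log2(RPKM + 1), siRNA minus control, with its standard error (SE).

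Colony-stimulating factors are secreted proteins that keep myeloid cells alive and direct their growth and maturation. CSF1 (M-CSF) and IL-34 are the ligands of CSF1R, a receptor tyrosine kinase on which most macrophages depend. CSF2 (GM-CSF) signals through a specific alpha chain, CSF2RA, paired with the beta chain CSF2RB, and mice carry a further beta gene, Csf2rb2, whose product serves IL-3. CSF3 (G-CSF) drives neutrophil production through CSF3R. In marrow, stromal cells and osteoblasts are a known source of CSF1, and the receptors are found mainly on myeloid cells.

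Both ligands that could be tested were lower in the siRNA libraries and all 5 receptor genes were higher. Csf1 fell 3.72-fold in mean RPKM and Il34 2.18-fold, whereas Csf3r was 2.16-fold, Csf2ra 1.67-fold, Csf2rb 1.54-fold and Csf1r 1.21-fold the control level, and Csf2rb2 rose by 0.27 on the log2 scale. At a Benjamini-Hochberg adjusted p below 0.05 by limma, over 13266 genes, 5 of the 7 members tested were higher and 2 were lower. Of all genes tested, 14.7% were higher and 29.8% were lower by this rule, together 44.5%, so an adjusted p under 0.05 was common in this comparison. A stricter rule, more than a 2-fold change on the log2(RPKM + 1) scale at an unadjusted p below 0.05, was met by 2 of the 7, Csf1 lower and Csf3r higher, where 6.58% of all genes tested met it, 5.63% lower and 0.95% higher. The libraries of the groups did not overlap in any of the 7 members, which held for 55.7% of all genes. The median log2 fold change was 0.27 over the 7 members and -0.09 over all genes. The split of all calls rested on the scaling of the libraries, with 1953 genes higher and 3952 lower as deposited, 2886 and 2931 with median ratio scaling, and 3589 and 2640 after quantile normalization, while all 7 members kept their directions and calls under both alternatives.

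**Figure D1:**
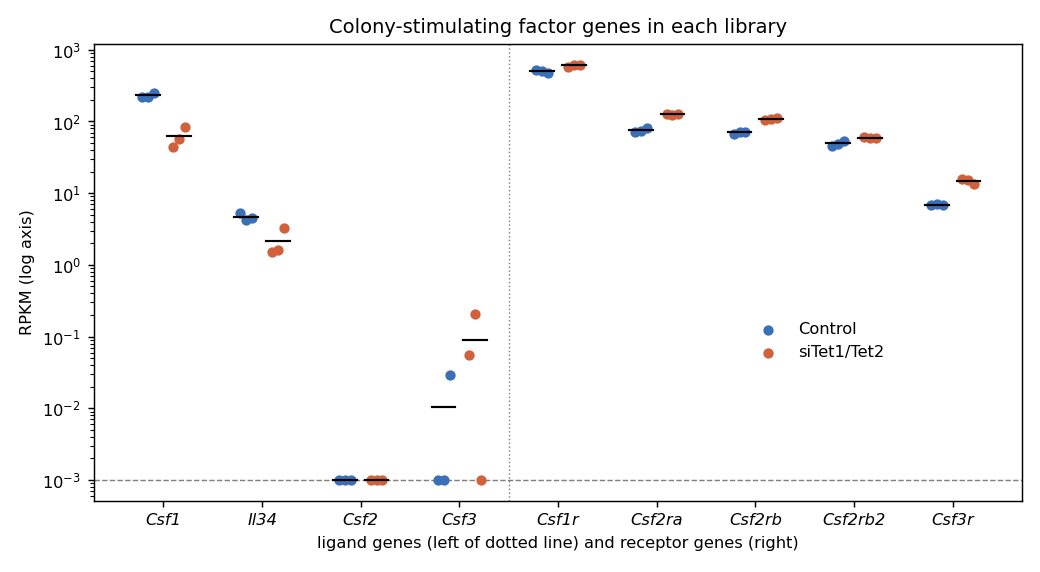
RPKM of the 9 genes in each library, on a log axis, for the control (blue) and Tet1/Tet2 siRNA (orange) libraries, with the 3 points of a group beside a black line at their mean and a dashed line at 0.001, the lowest value listed. Csf1 and Il34 lie lower in all 3 siRNA libraries, the 5 receptor genes lie higher, and Csf2 stays on the dashed line.

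The libraries were checked before the members were read. Tet2, a target of the siRNAs, was at 2.57, 4.08 and 3.71 RPKM in the controls against 0.358, 0.238 and 0.202 RPKM in the siRNA libraries. Tet1 was at 0.032 to 0.098 RPKM in the control libraries and at most 0.01 RPKM in the siRNA libraries, too low to be tested, and Tet3 was at 7.03 and 7.66 RPKM on average (adjusted p = 0.508 from limma). Depth is not given, and an estimate from low values of genes with 1 annotated transcript came to between 32400000 and 38600000 reads per library. At these depths 50.7% to 57.7% of those values came within 0.1 of whole reads, where 20% would by chance, and since the depths were picked for this match they are estimates only.

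The labelled cell type was set against marker genes, since the receptors are myeloid genes. All 14 macrophage markers were detected, and their summed level was 6749 to 8582 RPKM in the controls and 13901 to 16966 RPKM in the siRNA libraries. Lyz2, the macrophage lysozyme, was the most abundant at 4439 and 11321 RPKM on average. It made up most of the sum in both groups and most of its rise, so the sum is no measure of the other markers. Ptprc, the gene of CD45, stood at 52.6 and 53.0 RPKM. The 16 stromal markers summed to 1140 to 1649 RPKM in the controls and 152 to 300.1 RPKM in the siRNA libraries, with Col1a1, the collagen I chain, at 488.4 and 72.1 RPKM. Of the surface genes for which the study examined BMMSCs, Ly6a (Sca1) was at 152.2 and 16.4 RPKM, Pdgfra at 9.92 and 0.944 RPKM, Eng (CD105) at 23.8 and 15.6 RPKM, Nt5e (CD73) at 0.911 and 0.639 RPKM, Mcam (CD146) at 1.31 and 1.03 RPKM, Thy1 (CD90) at 0.061 and 0.059 RPKM, and Cd34, a marker said to be absent, at 1.10 and 1.14 RPKM. The study examined these markers as protein, by flow cytometry or immunostaining, and not as RNA of siRNA-treated cells. Its flow cytometry of BMMSCs from control and Tet1/Tet2 knockout mice found them negative for CD34 and CD45. The RNA levels here go against the label of a purely stromal culture in both groups. Genes of macrophages and CD45 were high, and Thy1 was close to the lowest listed value. The libraries are therefore named here only by their treatment. Among the macrophage markers 7 rose and 2 fell, with a median log2 fold change of 0.29 over 14 genes. Among the 13 stromal markers tested 11 fell and 0 rose, with a median of -2.32. Of all genes tested, 14.7% rose and 29.8% fell by the same rule. In bulk RNA, fewer cells of a type and less RNA per cell cannot be told apart, and the part of the cell mixture in the results below was not tested.

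**Figure D2:**
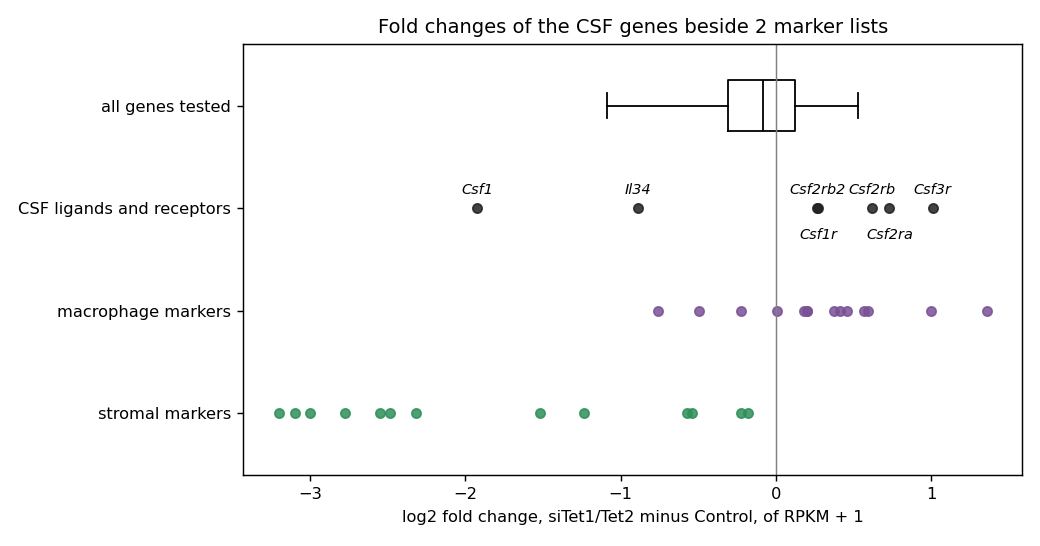
Log2 fold change of RPKM + 1, siRNA minus control, for the 7 members tested, 14 macrophage markers and 13 stromal markers, 1 point a gene, under a box of all 13266 genes (box from quartile to quartile with the median, whiskers from the 5th to the 95th percentile). Csf1 at -1.92 and Il34 at -0.89 lie within the range of the stromal markers, and the 5 receptor genes, from 0.27 to 1.01, within that of the macrophage markers.

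Csf1, the gene of the main macrophage growth factor, lies on chromosome 3 of GRCm38 from 107741048 to 107760469. It was at 221.1, 219.4 and 251.5 RPKM in the controls against 44.7, 57.1 and 84.4 RPKM in the siRNA libraries. The highest siRNA library was thus far below the lowest control library. The log2 fold change was -1.92 (SE 0.20, adjusted p = 0.00013 from limma), and 189 of the 13266 genes had a more negative one. By mean level Csf1 ranked 214 among these genes in the control libraries and 1153 in the siRNA libraries. The stromal markers fell at the same time, from -3.20 for Ly6a to -0.18 for Mcam on the log2 scale. With each library scaled to the geometric mean of the 16 stromal markers, the log2 fold change of Csf1 was -0.10 (95% interval -1.05 to 0.86). It was 0.12 (95% interval -0.45 to 0.68) with the 13 of them that were tested. The median of all genes was 1.46 and 1.64 under these scalings, in turn. With each library scaled to the 14 macrophage markers the log2 fold change of Csf1 was -2.25 (95% interval -2.68 to -1.81), where the median of all genes was -0.34. The other 3 stromal markers, Thy1, Lepr and Lum, were below the expression minimum and entered the 16-marker mean without the added 1. Thy1 stood at 0.001, 0.03 and 0.146 RPKM in the siRNA libraries, so that scaling leans on values near the lowest listed. Intervals under both stromal scalings treat the variance as known, although it comes from 6 libraries, and are likely too narrow.

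The genes whose centred log2(RPKM + 1) lay closest to that of Csf1 over the 6 libraries were Ctgf, Loxl2 and Ccnd2, with root mean square differences of 0.03, 0.04 and 0.04. Ctgf, a secreted matricellular protein, went from 399.8 to 106.7 RPKM on average, Loxl2, a lysyl oxidase that crosslinks matrix, from 40.7 to 10.2 RPKM, and Ccnd2, a D-type cyclin, from 72.6 to 19.2 RPKM. In each of these, as in Csf1, replicate 3 was the highest of the siRNA libraries and also of the control libraries. A shared order follows from choosing genes by closeness to Csf1 in these same libraries and is no separate result.

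Il34, the other ligand of CSF1R, lies on chromosome 8 from 110741829 to 110805924 and was expressed at a far lower level. It was at 5.36, 4.19 and 4.48 RPKM in the controls against 1.53, 1.64 and 3.28 RPKM in the siRNA libraries. The groups did not overlap, and siRNA replicate 3 was again the highest of its group. The log2 fold change was -0.89 (SE 0.20, adjusted p = 0.00707 from limma). It did not pass with the variance of this gene alone (adjusted p = 0.0663). It was 0.48 (95% interval -0.18 to 1.13) with each library scaled to the 16 stromal markers and 0.65 (95% interval 0.26 to 1.03) with the 13 that were tested. The median of all genes was 1.46 and 1.64 under these scalings, in turn, and Il34 lay below it in both. The limits of the stromal scalings given for Csf1 hold here too. Within a library, Csf1 RPKM exceeded Il34 RPKM by a factor of 41.3 to 56.2 in the control libraries and 25.7 to 34.8 in the siRNA libraries.

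Csf2 and Csf3, the genes of GM-CSF and G-CSF, were at or near the lowest listed value. Csf2 stood at 0.001 RPKM in all 6 libraries. By the estimated depths, 3 reads on its transcript would give 0.0972 to 0.116 RPKM, so a level up to that could not be told from 0, for counting error only. A value of 0.001 may also be a failed estimate, since 2 of 79 ribosomal protein symbols stood at it in at least 1 library. Csf3 was listed at 0.001, 0.001 and 0.029 RPKM in the controls against 0.056, 0.209 and 0.001 RPKM in the siRNA libraries. These values stand for about 0, 0 and 1.3 reads and about 3.0, 11.4 and 0 reads, and the groups overlap. Without the filter on low values Csf3 had a log2 fold change of 0.10 (95% interval -0.05 to 0.26, adjusted p = 0.308 from limma), a difference not detectable at this depth. Neither ligand could therefore be compared with its receptor.

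Csf1r, the gene of the CSF1 and IL-34 receptor, lies on chromosome 18 from 61100598 to 61132149 and was the most abundant of the 9 genes in both groups. It was at 519.0, 501.4 and 478.0 RPKM in the controls against 578.2, 614.9 and 618.7 RPKM in the siRNA libraries. Each siRNA library was above each control library, by a small margin. The log2 fold change was 0.27 (SE 0.07, adjusted p = 0.0173 from limma). The call was lost without control replicate 2 (adjusted p = 0.066), without siRNA replicate 2 (adjusted p = 0.0808) and without siRNA replicate 3 (adjusted p = 0.062), at log2 fold changes of 0.28, 0.26 and 0.26. With each library scaled to the macrophage markers the value was -0.055 (95% interval -0.20 to 0.09, adjusted p = 0.462 from limma). Its nearest genes over the 6 libraries were Capn1, a calpain protease, G6pc3, a glucose-6-phosphatase, and Fads1, a fatty acid desaturase, with root mean square differences of 0.02 each.

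The amount of ligand RNA per receptor RNA within a library does not depend on how the libraries were scaled. The ratio of Csf1 to Csf1r RPKM was 0.426, 0.438 and 0.526 in the control libraries and 0.0772, 0.0928 and 0.136 in the siRNA libraries, a 4.53-fold difference between the means. For Il34 to Csf1r the ratio was 0.00935 ± 0.000989 (SD, n = 3) in the control libraries and 0.00353 ± 0.00153 (SD, n = 3) in the siRNA libraries. Both ratios were lower in each siRNA library than in any control library. The exact two-sided permutation p was 0.1 for each, the smallest that 3 libraries against 3 allow, in a family of 7 ratios computed after the values were seen.

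Csf2ra, the gene of the GM-CSF receptor alpha chain, lies on chromosome 19 from 61223957 to 61228429. It was at 72.4, 74.0 and 82.0 RPKM in the controls against 128.5, 122.6 and 129.0 RPKM in the siRNA libraries. The groups were well apart, with a log2 fold change of 0.73 (SE 0.07, adjusted p = 6.99e-05 from limma). Csf2rb, the shared beta chain, lies on chromosome 15 from 78325752 to 78353847. It was at 67.9, 70.9 and 72.5 RPKM in the controls against 106.3, 108.8 and 110.2 RPKM in the siRNA libraries. The groups were again apart, with a log2 fold change of 0.62 (SE 0.06, adjusted p = 6.80e-05 from limma). The alpha chain stood slightly above the beta chain in all 6 libraries, with a ratio of Csf2ra to Csf2rb RPKM of 1.08 ± 0.0455 (SD, n = 3) in the control libraries and 1.17 ± 0.0415 (SD, n = 3) in the siRNA libraries, which overlapped (exact permutation p = 0.2). Both kept an adjusted p under 0.05 with each library scaled to the macrophage markers, at log2 fold changes of 0.40 for Csf2ra and 0.29 for Csf2rb, where the median of all genes moved from -0.09 to -0.34.

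Csf2rb2, the beta gene that serves IL-3, lies beside Csf2rb on chromosome 15 from 78282507 to 78305721, on the opposite strand. It was at 45.9, 49.0 and 54.1 RPKM in the controls against 59.9, 59.7 and 59.7 RPKM in the siRNA libraries. The siRNA libraries hardly differed among themselves and lay just above the highest control library, with a log2 fold change of 0.27 (SE 0.07, adjusted p = 0.0148 from limma). The call was lost after rescaling all libraries to 1 sum (0.21, adjusted p = 0.101) and without control replicate 2, siRNA replicate 1 or siRNA replicate 2 (adjusted p = 0.0548, 0.0512 and 0.0532). With each library scaled to the macrophage markers the value was -0.058 (95% interval -0.27 to 0.15, adjusted p = 0.605 from limma). The ratio of Csf2rb2 to Csf2rb RPKM was 0.676, 0.691 and 0.747 in the control libraries and 0.564, 0.548 and 0.542 in the siRNA libraries, lower in each siRNA library (exact permutation p = 0.1).

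Csf2rb and Csf2rb2 are near-identical copies, which bears on how far their values can be told apart. In the longest coding sequences of the GENCODE M21 transcripts, 2503 of 2628 aligned bases were identical, or 95.2%, and the longest identical run was 242 bases. Of the 2535 windows of 100 bases in the coding sequence of Csf2rb2, 286 also occur in that of Csf2rb, or 11.3%. Reads from these windows fit both genes, and how the authors' counting divided them is not given in the sources used here. The gap-free window of 90 coding bases in which the copies differ most is shown with the 16 differing bases in capitals, at coding bases 308 to 397 of Csf2rb and 311 to 400 of Csf2rb2, counted from the first base of the start codon.
Csf2rb: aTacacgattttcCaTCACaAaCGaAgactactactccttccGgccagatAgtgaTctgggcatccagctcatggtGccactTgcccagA
Csf2rb2: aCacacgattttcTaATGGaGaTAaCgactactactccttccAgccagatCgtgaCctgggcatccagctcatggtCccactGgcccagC

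Csf3r, the gene of the G-CSF receptor, lies on chromosome 4 from 126024550 to 126044440 and was the lowest of the receptor genes. It was at 6.84, 7.02 and 6.91 RPKM in the controls against 15.8, 15.5 and 13.7 RPKM in the siRNA libraries. The control libraries were close together, and each siRNA library was well above them. The log2 fold change was 1.01 (SE 0.08, adjusted p = 3.85e-05 from limma), and 120 of the 13266 genes had a larger one. It stayed between 0.97 and 1.07 with any 1 library left out, which puts it on either side of a 2-fold change, and it was 0.71 (95% interval 0.49 to 0.93) with each library scaled to the macrophage markers. The ratio of Csf3r to Csf1r RPKM was 0.0132, 0.0140 and 0.0145 in the control libraries and 0.0273, 0.0252 and 0.0221 in the siRNA libraries, higher in each siRNA library (exact permutation p = 0.1). Of the 11 neutrophil markers, the other cells that carry this receptor, 9 were too low to be tested, among them Mpo, Elane and Ly6g at 0.113 RPKM or less in every library. S100a8 rose from 1.95 to 12.7 RPKM and Camp fell from 1.45 to 0.058 RPKM on average, while S100a9, the partner of S100a8, was listed at 0.001 RPKM throughout.

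**Figure D3:**
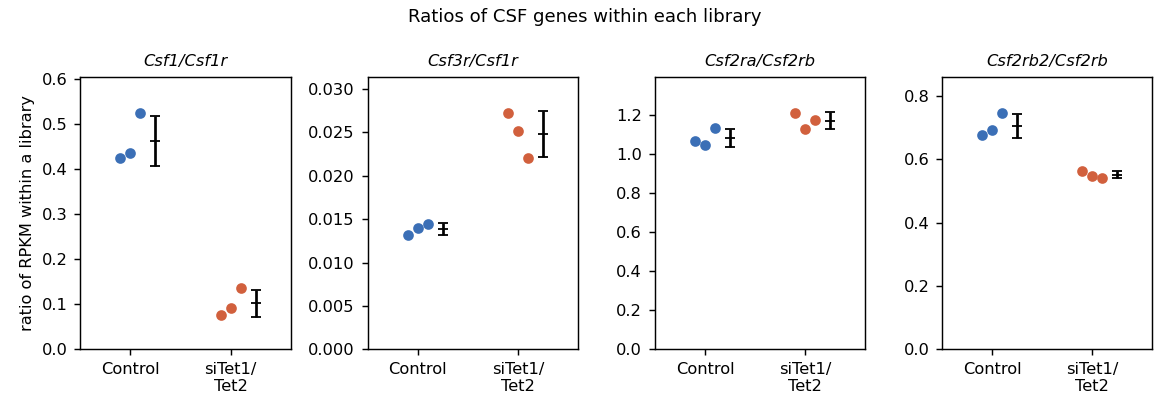
Ratios of RPKM within each library, 1 point a library, for Csf1 to Csf1r, Csf3r to Csf1r, Csf2ra to Csf2rb and Csf2rb2 to Csf2rb, with the mean and SD (n = 3) at the right of each group. Csf1 to Csf1r and Csf2rb2 to Csf2rb are lower and Csf3r to Csf1r is higher in every siRNA library, whereas the groups overlap for Csf2ra to Csf2rb.

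The order of the levels changed with Csf1. In the control libraries it ran Csf1r, Csf1, Csf2ra, Csf2rb, Csf2rb2, Csf3r, Il34, Csf3 and Csf2, and neighbours overlapped for Csf2ra with Csf2rb and for Csf3 with Csf2. In the siRNA libraries Csf1 stood at rank 4, behind Csf2ra and Csf2rb, and its range of 44.7 to 84.4 RPKM took in that of Csf2rb2.

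Under the marker scalings the receptor genes divided. Scaled to the macrophage markers, Csf2ra, Csf2rb and Csf3r stayed above the control level and the intervals of Csf1r and Csf2rb2 took in 0. Scaled to the tested stromal markers all 5 were higher, by 2.29 to 2.85 on the log2 scale. That scaling called 11931 of the 13266 genes higher, so a rise under it says little about the receptor genes. All 5 lay above the median of all genes there, which was 1.64. The macrophage markers themselves spread widely, from -0.76 for Msr1, a scavenger receptor, to 1.36 for Lyz2. These scalings restate the values per marker level and do not say how many cells there were.

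**Figure D4:**
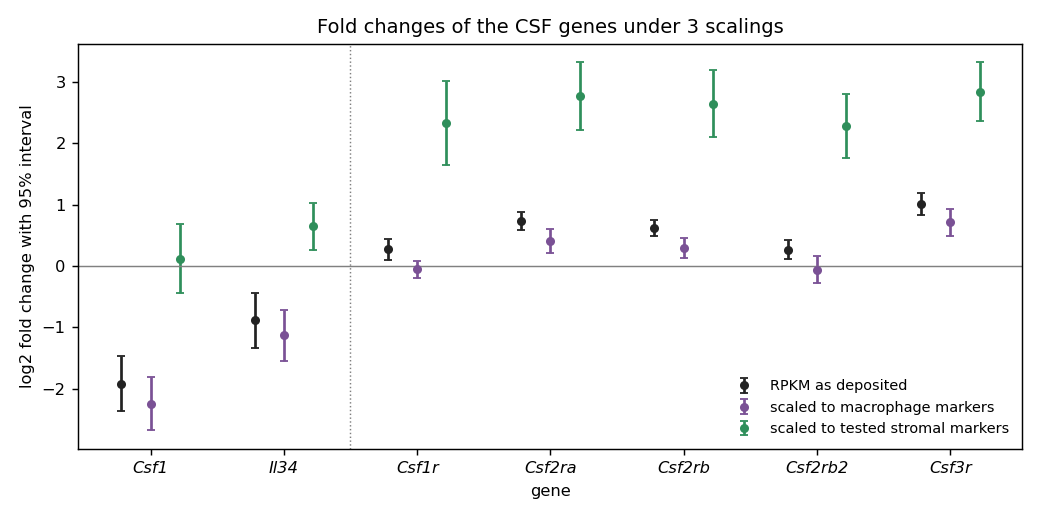
Log2 fold change with its 95% interval for the 7 members tested, with RPKM as deposited (black), each library scaled to 14 macrophage markers (purple) or to the 13 stromal markers tested (green), ligands left of the dotted line and receptors right of it. The interval of Csf1 takes in 0 only after stromal scaling, at 0.12. Those of Csf1r and Csf2rb2 take in 0 only after macrophage scaling, at -0.055 and -0.058. The stromal-scaled intervals treat the variance as known and are likely too narrow, and the median of all genes under that scaling was 1.64.

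The promoters of members that moved are shown because the study concerns DNA demethylation, which acts at CpG sites. RefSeq promoters of GRCm38.p6 were matched for 5 of the 9 genes, and the 250 bases before the start are printed for 3 of the 4 that rose or fell. RefSeq and GENCODE M21 place some starts differently, so that 109 bases of the Csf3r window, which is not printed for that reason, and the last 11 bases of the Csf2ra window lie inside the GENCODE gene. Csf1 held 10 CpG sites, Csf2ra 17, Csf3r 6 and Csf2rb2 3, beside a median of 6 over 32851 promoters. Capitals mark letters matched on either strand to GAGGAA, the core bound by PU.1, TTGCNNAA for C/EBP, the NF-kB motif (GGGA, 4 bases of any kind, then CC) or TGANTCA for AP-1, which 23.3%, 9.56%, 17.6% and 6.75% of all promoters hold.
Csf1 promoter, chr3:107760470-107760719, minus strand: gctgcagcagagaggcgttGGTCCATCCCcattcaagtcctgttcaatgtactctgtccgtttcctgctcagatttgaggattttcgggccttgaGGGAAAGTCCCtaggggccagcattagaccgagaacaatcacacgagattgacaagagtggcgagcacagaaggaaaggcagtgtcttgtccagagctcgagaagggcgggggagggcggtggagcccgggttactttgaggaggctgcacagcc
Csf2ra promoter, chr19:61228419-61228668, minus strand: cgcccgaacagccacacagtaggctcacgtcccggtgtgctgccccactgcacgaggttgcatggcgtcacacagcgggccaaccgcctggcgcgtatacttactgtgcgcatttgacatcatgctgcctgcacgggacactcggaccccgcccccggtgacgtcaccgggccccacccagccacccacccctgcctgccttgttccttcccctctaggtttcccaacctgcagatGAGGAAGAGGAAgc
Csf2rb2 promoter, chr15:78305722-78305971, minus strand: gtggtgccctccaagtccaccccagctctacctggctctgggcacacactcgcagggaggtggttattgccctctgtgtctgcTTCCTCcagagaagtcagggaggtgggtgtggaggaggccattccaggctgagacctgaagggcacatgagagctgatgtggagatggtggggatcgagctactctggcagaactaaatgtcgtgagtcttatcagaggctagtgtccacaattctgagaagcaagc
Csf1 held 3 NF-kB matches, of which 2 overlap on opposite strands, and none of the other motifs. Csf2ra held 2 adjoining matches to GAGGAA at the end of its window, of which 1 spans the GENCODE start and 1 lies inside the gene, Csf2rb2 held 1, and Csf3r held 1 beside 1 NF-kB match. A match is a string of letters and not a site shown to be bound, and methylation was not measured in these libraries.

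Transcription factors that control the receptor genes were taken from a list of 12, of which 9 were tested, 4 rose and 2 fell, while 14.7% of all genes rose and 29.8% fell. The split was 2 and 5 with macrophage scaling, where 712 of the 13266 genes rose and 7934 fell. It was 8 and 0 with stromal scaling, where 11314 of them rose and 193 fell. Cebpa, a factor of granulocyte and macrophage maturation, went from 110.2 ± 4.33 to 256.5 ± 10.5 RPKM (SD, n = 3), a log2 fold change of 1.21 (SE 0.06, adjusted p = 5.46e-06 from limma). Egr2 rose from 1.37 to 3.23 RPKM and Ets2 fell from 15.7 to 7.91 RPKM. Cebpb rose from 76.7 to 87.5 RPKM, a log2 fold change of only 0.19, close to the threshold (adjusted p = 0.0451 from limma). Spi1, the gene of PU.1, was at 206.0, 199.3 and 181.3 RPKM in the controls and 209.5, 212.5 and 204.9 RPKM after siRNA treatment (limma adjusted p = 0.275). The number called went from 6 to 4 without control replicate 2, siRNA replicate 1 or siRNA replicate 2, without the filter on low values, and with gene-wise variances. Cebpa was higher, as the receptors were, and Cebpb slightly so. Cebpe was too low to be tested, and the level of Spi1 overlapped between the groups. Whether any of these factors acted on the receptor genes was not tested.

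The kinases, adaptors, STATs and inhibitors that act below these receptors moved both ways. Of 36 genes, all tested, 11 rose, 13 fell and 12 did not pass, 66.7% called against 44.5% of all genes, with a median log2 fold change of -0.08. Tyrobp, the ITAM adaptor DAP12, rose from 465.6 to 1164 RPKM on average, Syk, the kinase it recruits, from 46.8 to 78.8 RPKM, Inpp5d, the phosphatase SHIP1, from 72.0 to 104.1 RPKM, and Mapk3, the kinase ERK1, from 82.1 to 113.3 RPKM. Src fell from 11.8 to 5.66 RPKM, and the feedback inhibitors Socs1 and Socs3 fell from 2.51 to 0.915 RPKM and from 4.94 to 2.40 RPKM. The STATs most used by CSF2 receptors did not pass. Stat5a was at 6.20 and 7.28 RPKM (adjusted p = 0.0661) and Stat5b at 13.3 and 14.3 RPKM (adjusted p = 0.25, limma). Stat3 fell from 41.1 to 28.6 RPKM (adjusted p = 0.000309) and Jak2 from 17.1 to 9.38 RPKM (adjusted p = 0.000572, limma). Jak1, at 63.3 and 70.2 RPKM, did not pass (adjusted p = 0.0727 from limma). After rescaling all libraries to 1 sum 7 rose and 14 fell, and with median ratio scaling 15 rose and 13 fell. With macrophage scaling 2 rose and 21 fell, where 712 of the 13266 genes rose and 7934 fell. With stromal scaling 31 rose and 0 fell, where 11314 of all genes rose and 193 fell. The direction of the list thus rests on the scaling, as that of all genes does.

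Of 7 genes that pair with the receptors, bind their ligands or shed them, 4 were tested. Sdc1, a syndecan that binds IL-34, fell from 44.7 ± 4.01 to 20.6 ± 2.15 RPKM (SD, n = 3), a log2 fold change of -1.08 (SE 0.09, adjusted p = 5.76e-05 from limma). Ptprz1, a receptor phosphatase that binds IL-34, fell from 0.260 to 0.0257 RPKM. Adam17, the protease that sheds CSF1 and its receptor, rose from 40.2 to 46.2 RPKM (adjusted p = 0.023 from limma), a call lost after rescaling all libraries to 1 sum, after scaling to the macrophage markers, and without control replicate 1, control replicate 2, siRNA replicate 1 or siRNA replicate 3. Il3ra, the IL-3 receptor alpha chain that pairs with both beta chains, was at 17.8 and 15.8 RPKM (adjusted p = 0.134 from limma), and Il3, Il5 and Il5ra were too low to be tested.

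The NF-kB subunits and the inflammatory genes that induce or accompany stromal CSF production were read from a list of 16, of which 15 were tested, 6 fell and 0 rose, 40% called against 44.5% of all genes. The chemokine gene Ccl2 fell from 282.0 ± 6.63 to 33.3 ± 6.26 RPKM (SD, n = 3), a log2 fold change of -3.06 (SE 0.12, adjusted p = 1.28e-06 from limma). Il6 fell from 2.79 to 0.175 RPKM, Cxcl1 from 2.73 to 0.477 RPKM and Il1r1, the IL-1 receptor, from 1.62 to 0.122 RPKM, and Tnf and Tnfaip3 fell as well. The subunits Nfkb1, Nfkb2, Rela, Relb and Rel did not pass, with log2 fold changes from -0.09 to 0.27. The count of higher genes was 1 with the replicate block or without control replicate 3, and 4 with median ratio scaling or quantile normalization, where 5 genes were lower. With macrophage scaling 0 were higher and 12 lower, where 712 of the 13266 genes were higher and 7934 lower. With stromal scaling 10 were higher and 3 lower, where 11314 of all genes were higher and 193 lower.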

How the data were processed

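RNA-seq libraries of cultures labelled as BMMSCs were compared, 3 control and 3 Tet1/Tet2 siRNA-treated. The authors trimmed adaptors, mapped reads to GRCm38 and used DNASTAR Lasergene for abundance. The deposited table holds linear RPKM in 36915 rows, and 0.001 is its lowest value. The methods call the unit FPKM. The table's p-values are the authors' own comparison and were not used. For the 37 symbols listed more than once, only the row of highest mean entered, and Adgre1 was read under its older symbol Emr1.

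Values were tested as log2(RPKM + 1), the 1 being a pseudocount. limma 3.58.1 (lmFit, eBayes with trend, two-sided) was run under R 4.3.3 on the 13266 genes whose mean reached 0.1 RPKM, with Benjamini-Hochberg adjustment over all of them. The pseudocount shrinks the fold changes of low genes. The test was checked on simulated data. The members and gene lists were chosen with earlier results of these data known. Besides the members, named genes were the 4 largest changes in each direction of a list with groups that did not overlap, 3 genes of closest profile for Csf1 and Csf1r, the targets and surface markers, and the most abundant markers. Genes given beyond these (Spi1, Cebpe, Stat3, Stat5a, Stat5b, Jak1, Jak2, Il3ra, Il3, Il5, Il5ra, Tnf, Tnfaip3, the NF-kB subunits, Msr1, Lepr, Lum and the neutrophil and osteoclast markers) were chosen after their values were seen. Some genes that the rule would name are not reported here.

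Replicate numbers are shared between the groups. Deviations from the group means correlated between same-numbered libraries at 0.149 (replicate 1), 0.117 (replicate 2) and 0.462 (replicate 3), each over 0.1, and the replicate block was fitted as an alternative. Unlike numbers also correlated, control replicate 1 with siRNA replicate 2 at 0.332 and control replicate 2 with siRNA replicate 1 at 0.205, and no source states a pairing. Within groups, libraries correlated with r between 0.992 and 0.997 over genes. Positions and transcripts are from GENCODE M21, and Biopython 1.88 in Python 3.11.15 aligned the coding sequences. Alternatives were other pseudocounts, filters, scalings and variance estimates, the summed rows and each library left out.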

Additional observations from a re-analysis of the deposited data

How the results depend on the processing

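Over the alternatives, 240 of 261 values for the members and list counts kept their direction and their side of the threshold, or for counts stayed within 1.5 times. The counts of higher and of lower genes moved more often, with 150 of 200 within 1.5 times. Csf2ra, Csf2rb and Csf3r kept direction and call under all 20 alternatives, with log2 fold changes from 0.40 to 2.77, 0.29 to 2.65 and 0.71 to 2.85. The upper ends come from scaling to the tested stromal markers. The stromal scalings called 86.7% (16 markers) and 91.7% (13 markers) of all genes, most of them higher. Holding under those scalings therefore says little about these 3 genes. The replicate block changed no call of a member, and the adjusted p of Csf1 was 1.25e-05 with it. Scaled to the stromal markers, Csf1 was at -0.10 (adjusted p = 0.854 from limma), Il34 at 0.48 and 5 members met the 2-fold rule in place of 2. With the 13 stromal markers tested, a scaling chosen after seeing the data, Csf1 was at 0.12, Il34 at 0.65 and 5 members met that rule. Calls and adjusted p-values under both stromal scalings treat the variance as known. The scaling to all 16 stromal markers also leans on 3 that were below the expression minimum. Scaled to the macrophage markers, Csf1r was at -0.055 and Csf2rb2 at -0.058. Csf2rb2 was at 0.21 after rescaling all libraries to 1 sum, and Il34 at -0.89 without moderated variance (adjusted p = 0.0663). The count of NF-kB and inducer genes called, 6, was 12 with macrophage scaling, 13 with stromal scaling and 14 with the tested stromal markers. Of all genes, 65.2%, 86.7% and 91.7% were called under these scalings, in turn. Scaling moved the median of all genes from -0.09 to 0.05 after quantile normalization and -0.34 with macrophage markers. It was 1.46 with the 16 stromal markers and 1.64 with the 13 tested. With 1 library left out, the log2 fold change of Csf1r was 0.24 to 0.30 and that of Csf2rb2 0.21 to 0.33, the members called were 5 to 7, and those meeting the 2-fold rule 1 to 3. Values at 0.001, as for Csf2, may be low expression or a failed estimate.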

Other observations

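Genes of osteoclasts, the bone-resorbing cells that grow out of CSF1-dependent precursors, moved unevenly. Of 8 listed markers 5 were tested, of which 3 rose and 0 fell, while 14.7% of all genes rose. Atp6v0d2, a subunit of the proton pump, was at 58.4, 58.9 and 55.5 RPKM in the controls and 151.3, 129.8 and 137.2 RPKM in the siRNA libraries (log2 fold change 1.26, limma adjusted p = 7.20e-06). Acp5, the acid phosphatase TRAP, rose from 3.71 to 10.4 RPKM and Ctsk, cathepsin K, from 10.6 to 14.3 RPKM on average. Calcr, the calcitonin receptor of mature osteoclasts, was at 0.008 RPKM or less in every library, and Dcstamp, a fusion gene, at 0.0277 and 0.167 RPKM on average. The remaining markers were low and lay lower in every siRNA library, Ocstamp at 0.178 and 0.0597 RPKM, Mmp9 at 0.535 and 0.374 RPKM, neither past the test, and Oscar at 0.13 and 0.01 RPKM, not tested.

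Markers of other cell types that could carry the receptors were low. Of the 7 dendritic cell markers, 2 were tested, and Itgax, which macrophages also express, rose from 7.51 to 9.57 RPKM. Of the 8 lymphocyte markers only Cd4 was tested, and it rose from 2.56 to 8.06 RPKM, while Cd3e, Cd3g and Cd8a were at 0.019 RPKM or less in every library. Among 5 mast cell markers only Kit was tested, at 0.075 to 0.185 RPKM over the 6 libraries (limma adjusted p = 0.981). Of the 5 endothelial markers 4 were tested, of which 1 rose and 2 fell, while 14.7% of all genes rose and 29.8% fell. Kdr, a VEGF receptor, fell from 1.58 to 0.604 RPKM.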
